A study of Homo sapiens with 9 samples.

Results

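The genes described here are the DEAD box and DEAH box helicase genes, taken as the protein-coding genes of the GENCODE version 44 annotation (GRCh38) whose names start with DDX or DHX followed by a number, outside chromosome Y. The rule found 53 genes, 37 with DDX names and 16 with DHX names, on 18 chromosomes, of 19970 protein-coding genes in all. A gene was given a peak of RNA polymerase II where the summit of the peak, its position of highest signal, was inside the gene or no more than 1000 bp from any of its annotated transcript starts. By this rule 19 of the 53 helicase genes (35.8%) had a peak in at least 1 of the 3 deposited peak lists, and 34 had none. Of all coding genes, 26.4% had a peak in at least 1 list.

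DEAD box and DEAH box proteins are named after the amino acids of an ATP-binding motif. They bind RNA, in some cases also DNA, and spend ATP to open base pairs, to move RNA through a complex or to strip proteins from it. Different members act at most steps in the life of an RNA, from transcription and splicing to export, translation, ribosome assembly and decay. DHX9 unwinds RNA and DNA structures, R-loops among them, in which a transcript pairs with its DNA template and leaves the other strand single. DDX23 and DDX46 belong to the spliceosome, the machine that the splicing factor U2AF1 helps to place at the 3′ end of introns.

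Binding of POLR2A, the large catalytic subunit of RNA polymerase II, was mapped by ChIP-seq (sequencing of DNA recovered with an antibody from fixed chromatin) in HEK293T, an established human embryonic kidney cell line. The 9 samples formed 3 conditions. The first was a control labelled shCtrl with a wild-type genotype, the second a knockdown of U2AF1 and the third a knockdown of DHX9, which is itself one of the helicase genes. Each condition had 2 ChIP samples and 1 input sample of sheared chromatin without antibody. All groups shared the cell line, the growth medium and the POLR2A antibody, and the sample labels do not say how long the knockdowns lasted or how far either protein was reduced. The deposited knockdown lists carry the prefix sh, as the control does, which is the usual mark of a short hairpin RNA. The study's title concerns promoter R-loops, U2AF1 and splicing.

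Peaks numbered 2757 in the control list, against 1730 after U2AF1 knockdown and 4443 after DHX9 knockdown. With 1 list per condition there was no replicate error, and no difference between conditions could be tested. Names of control peaks carry a suffix like that of replicate 1 while those of knockdown peaks do not, so the lists may not rest on the same number of libraries. The number of reads behind each list is unknown. Of 6 genes expressed in every cell, among them GAPDH and ACTB, a peak was listed for 6 (control), 5 (U2AF1 knockdown) and 6 (DHX9 knockdown). Of 6 markers of other tissues, such as ALB and HBB, 0 had a peak in any list.

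In the control list, polymerase peaks were found at 7 of the 53 helicase genes (13.2%, 95% Wilson interval 6.55 to 24.8): DDX5, DDX3X, DHX9, DDX20, DDX19B, DDX6 and DDX51. Of all coding genes, 13.2% had one, so the helicase share was that of the background. The U2AF1 knockdown list held peaks at 6 helicase genes (11.3%, interval 5.29 to 22.6), namely DDX46, DDX3X, DHX9, DDX21, DDX59 and DDX5. The share of all coding genes in that list was 7.37%, which lies inside the helicase interval. In the DHX9 knockdown list 19 helicase genes had a peak (35.8%, interval 24.3 to 49.3), against 22.2% of all coding genes, a share below that interval. The intervals cover counting error only, and genes are not replicates of a condition.

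The DHX9 knockdown list was also the longest, and its additional helicase peaks were mostly weak. When each list was reduced to its 1730 most significant peaks, the length of the shortest list, it kept peaks at 4 helicase genes (7.55%), DDX3X, DHX30, DDX20 and DDX51. All coding genes stood at 8.99% on that footing. The control list then had 6 helicase genes (11.3%, against 8.48% of all coding genes) and the U2AF1 knockdown list its 6 (11.3%, against 7.37%). The excess over background in the DHX9 knockdown list was therefore not present at equal list length, where this list had the lowest helicase share. With peaks of −log10 q of at least 5 alone, where q is the authors' adjusted p-value of a peak, peaks were left at 7 helicase genes of the control list (13.2%, against 9.62% of all coding genes), 5 of the U2AF1 knockdown list (9.43%, against 4.24%) and 14 of the DHX9 knockdown list (26.4%, interval 16.4 to 39.6, against 14.8%). By that threshold the DHX9 knockdown share remained above the background.

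**Figure D1:**
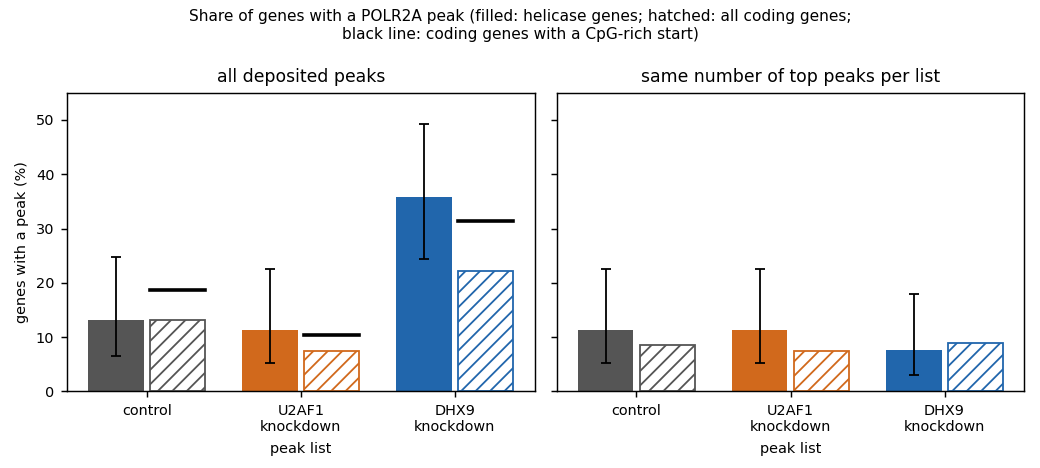
Share of genes with a POLR2A peak (vertical axis, percent) in each of the 3 lists (horizontal axis), for the 53 helicase genes (filled bars, with 95% Wilson intervals) and all protein-coding genes (hatched bars). Black lines give the share among coding genes with a CpG-rich start. With all deposited peaks (left) the DHX9 knockdown list had the highest helicase share, 35.8%, and with every list shortened to its 1730 most significant peaks (right) the lowest, 7.55%.

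Every helicase gene with a peak in the control or U2AF1 knockdown list also had one in the DHX9 knockdown list, 10 of 10 genes. For all coding genes this held for 2312 of 3152 (73.4%). At equal list length it held for 3 of 9 helicase genes (33.3%), DDX3X, DDX20 and DDX51, and for 1125 of 2391 coding genes (47.1%). DDX3X, DDX5 and DHX9 had a peak in all 3 lists, 5.66% of helicase genes against 4.36% of all coding genes. DDX19B, DDX20, DDX51 and DDX6 had one in the control and DHX9 knockdown lists only (7.55%, against 5.72%). DDX21, DDX46 and DDX59 had one in both knockdown lists and not in the control list (5.66%, Wilson interval 1.94 to 15.4, against 1.5%). That count was 0 at equal list length, where all coding genes stood at 0.901%, 1 with −log10 q of at least 5 and 2 when peaks were counted for the nearest coding start only.

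The remaining 9 genes, DDX1, DDX11, DDX17, DDX19A, DDX23, DDX39A, DDX42, DDX55 and DHX30, had a peak in the DHX9 knockdown list only (17.0%, interval 9.20 to 29.2, against 10.7% of all coding genes). There were 0 helicase genes with a peak in the control list only, where 2.69% of coding genes fell, 0 in the U2AF1 knockdown list only (1.04%) and 0 in the control and U2AF1 knockdown lists only (0.476%). With 53 genes, a count of 0 leaves an upper Wilson bound of 6.76%, so these zeros do not separate the helicase genes from the background. No peak in any list was found for 34 helicase genes (64.2%, against 73.6%).

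**Figure D2:**
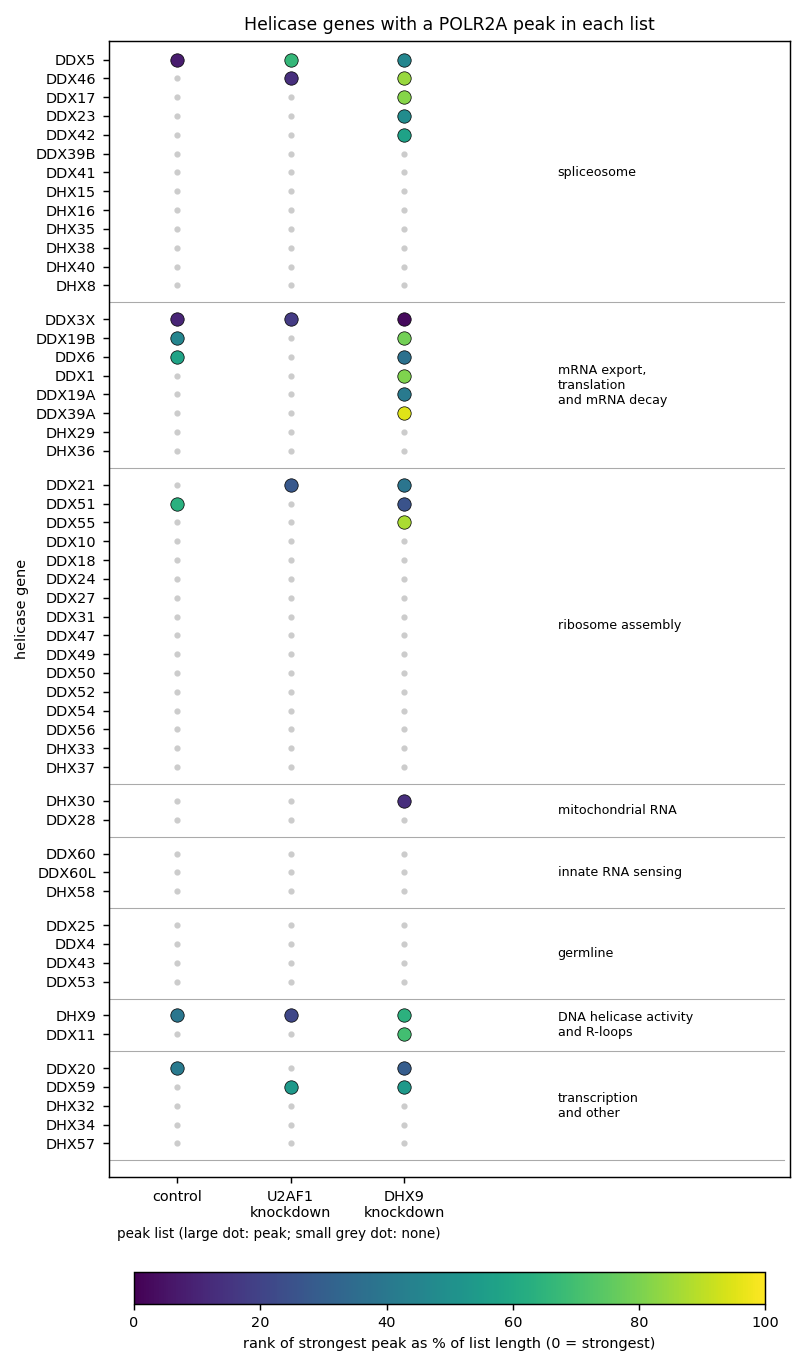
Helicase genes (vertical axis, grouped by role) and peak lists (horizontal axis): a large dot marks a gene with a POLR2A peak and a small grey dot a gene without one. Colour gives the rank of the strongest peak by fold enrichment as a percentage of the list's length, from 0 (strongest) to 100. The DHX9 knockdown column has 19 large dots, including each of the 7 in the control column and the 6 in the U2AF1 knockdown column.

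DDX3X, DDX5 and DHX9 carried the peaks found in all conditions, and all 3 lay at the start of the gene. The fold enrichment of a peak is the authors' ratio and depends on the depth of its library, so peaks are described by their rank within a list. Ranks from lists of different lengths cannot show whether a peak changed between conditions.

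DDX3X, an X-linked helicase that helps ribosomes start on structured messages, had the strongest helicase peak of the DHX9 knockdown list. Its peak at chrX:41333988-41334447 had a fold enrichment of 12.2 and rank 115 of 4443, and a −log10 q of 34.5. In the control list a wider peak, chrX:41333737-41334473, had a fold enrichment of 6.44 and rank 284 of 2757, and in the U2AF1 knockdown list chrX:41334080-41334364 had 6.41 and rank 299 of 1730. DDX3X thus stood within the top 17.3% of every list. The control and DHX9 knockdown summits were the same base, in the 5′ untranslated region 33 bp downstream of the nearest annotated start, and the U2AF1 knockdown summit lay 51 bp away.

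DDX5, a splicing and transcription cofactor, had the highest helicase rank in the control list, at chr17:64506056-64506430 with a fold enrichment of 7.15 and rank 205. The U2AF1 knockdown list placed its peak, chr17:64506070-64506279, at rank 1149 with a fold enrichment of 4.18. In the DHX9 knockdown list the peak at chr17:64506118-64506448 ranked 2044 with a fold enrichment of 5.44. So DDX5 stood in the top 7.44% of the control list, in the lower part of the U2AF1 knockdown list (66.4%) and near the middle of the DHX9 knockdown list (46.0%). The summits of the 3 peaks lay between 50 and 118 bp apart.

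DHX9, the gene targeted in one of the knockdowns, had a peak over its 5′ untranslated region in every list, with summits 39, 86 and 45 bp downstream of its start. Its ranks of 1085 (control), 366 (U2AF1 knockdown) and 2833 (DHX9 knockdown) are the top 39.4%, 21.2% and 63.8% of each list. The fold enrichments were 4.47, 6.03 and 4.81. A peak of polymerase at the start of DHX9 was thus also called in the cells labelled DHX9 knockdown, and the lists do not measure DHX9 RNA or protein. An antisense transcript, DHX9-AS1, starts on the other strand inside the gene, 128 to 175 bp from the summits, and ChIP-seq does not tell the strands apart.

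The part of the DHX9 peak of the DHX9 knockdown list just upstream of the gene shows the bases before this start. The control peak overlapped only its end, and the U2AF1 knockdown peak began downstream of it. It is printed from the GRCh38 reference, 5′ to 3′ on the gene's strand, for chr1:182839217-182839311, and capitals mark, on either strand, the letters of the CCAAT box (CCAAT), the GC box (GGGCGG) and the NRF1 motif (GCGCATGCG).
DHX9: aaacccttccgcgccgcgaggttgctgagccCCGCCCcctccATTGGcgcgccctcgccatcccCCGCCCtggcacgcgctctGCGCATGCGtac
These 95 bases hold 13 CpG dinucleotides and 4 motif matches. In RefSeq promoters, taken from 250 bases before to 50 after the start, the NRF1 letters were found in 2.74% of 15315 coding genes, and among the 48 helicase genes in that table in 5. These were DHX9 and DDX11, which had peaks, and DDX10, DDX27 and DDX41, which had none.

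The DDX3X peak of the control list reached past an exon into an intron. Its part inside the intron, chrX:41334298-41334473 on the plus strand, is shown because this control peak extended here. The stretch has no match to the motifs searched, so it has no capitals.
DDX3X: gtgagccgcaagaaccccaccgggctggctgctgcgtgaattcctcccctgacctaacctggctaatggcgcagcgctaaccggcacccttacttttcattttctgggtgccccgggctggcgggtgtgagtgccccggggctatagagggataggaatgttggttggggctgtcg
The 176 bases hold 59 G and 50 C, so the strand that matches the RNA has more G than C.

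Of the 4 genes with peaks in the control and DHX9 knockdown lists only, DDX20 had the highest control rank. DDX20, also called GEMIN3, belongs to the SMN complex that builds splicing particles. Its control peak, chr1:111755319-111756153, was the widest of all 35 helicase peaks at 835 bp and had a fold enrichment of 4.41 and rank 1129. The DHX9 knockdown peak, chr1:111755481-111756110, had 6.26 and rank 1285, and the summits were 4 bp apart in a coding exon of the canonical transcript. INKA2 starts on the opposite strand 77 bp from the DDX20 start, and both peaks spanned both starts, with the summits on the DDX20 side.

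The upstream part of the DDX20 peak, chr1:111755538-111755700, is free of annotated exons and is printed on the plus strand with GC boxes in capitals.
DDX20: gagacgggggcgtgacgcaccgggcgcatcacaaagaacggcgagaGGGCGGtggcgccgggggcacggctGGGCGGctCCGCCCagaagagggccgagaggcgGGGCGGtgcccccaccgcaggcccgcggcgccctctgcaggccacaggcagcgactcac
It holds 4 GC boxes and 21 CpG dinucleotides in 163 bases. A GC box in these letters is common, in 59.2% of all coding promoters and in 27 of 48 helicase promoters (56.2%).

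DDX19B, DDX6 and DDX51 completed this group, and each had its control summit upstream of its own start. DDX6, which represses and decays messages in cytoplasmic granules, had summits at -122 bp (control, rank 1603) and -105 bp (DHX9 knockdown, rank 1662), and a non-coding transcript of the opposite strand, ENSG00000278376, starts nearer to both. DDX19B, which frees messages at the nuclear pore, had summits at -238 bp (control, rank 1253) and -259 bp (DHX9 knockdown, rank 3505) from its nearest annotated start, which is not the canonical one. Those lay 81 and 87 bp from a start of AARS1, the alanyl-tRNA synthetase gene, so the neighbour's start was the nearer one. DDX51, a ribosome assembly factor, ranked 1749 in the control list with a fold enrichment of 3.74 and 1129 in the DHX9 knockdown list with 6.35.

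At DDX51 the summit lay on different sides of a shared promoter in the 2 lists. NOC4L, another ribosome assembly gene, starts on the opposite strand 138 bp from the DDX51 start. In the control list the summit was at -194 bp, beyond the NOC4L start and 56 bp from it. In the DHX9 knockdown list it was at 26 bp, inside DDX51 and 164 bp from the NOC4L start. The peaks themselves, chr12:132144224-132144570 and chr12:132144125-132144550, overlapped over 327 bp and spanned both starts. This distance of 220 bp between summits was the largest of the 16 overlapping pairs of helicase peaks, whose median was 48.5 bp, and with 1 list each its error is unknown.

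The bases between the 2 starts, chr12:132144320-132144456, are printed on the DDX51 strand (minus), with the cyclic AMP response element (TGACGTCA) in capitals.
DDX51: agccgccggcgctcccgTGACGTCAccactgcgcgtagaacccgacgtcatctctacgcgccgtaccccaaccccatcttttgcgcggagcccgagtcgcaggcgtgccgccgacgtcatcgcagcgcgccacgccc
This stretch of 137 bases holds 24 CpG dinucleotides. The element was in 2.64% of coding promoters and in 5 of 48 helicase promoters, those of DDX51 and DDX19A among genes with a peak and of DDX10, DDX28 and DHX36 among genes without.

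**Figure D3:**
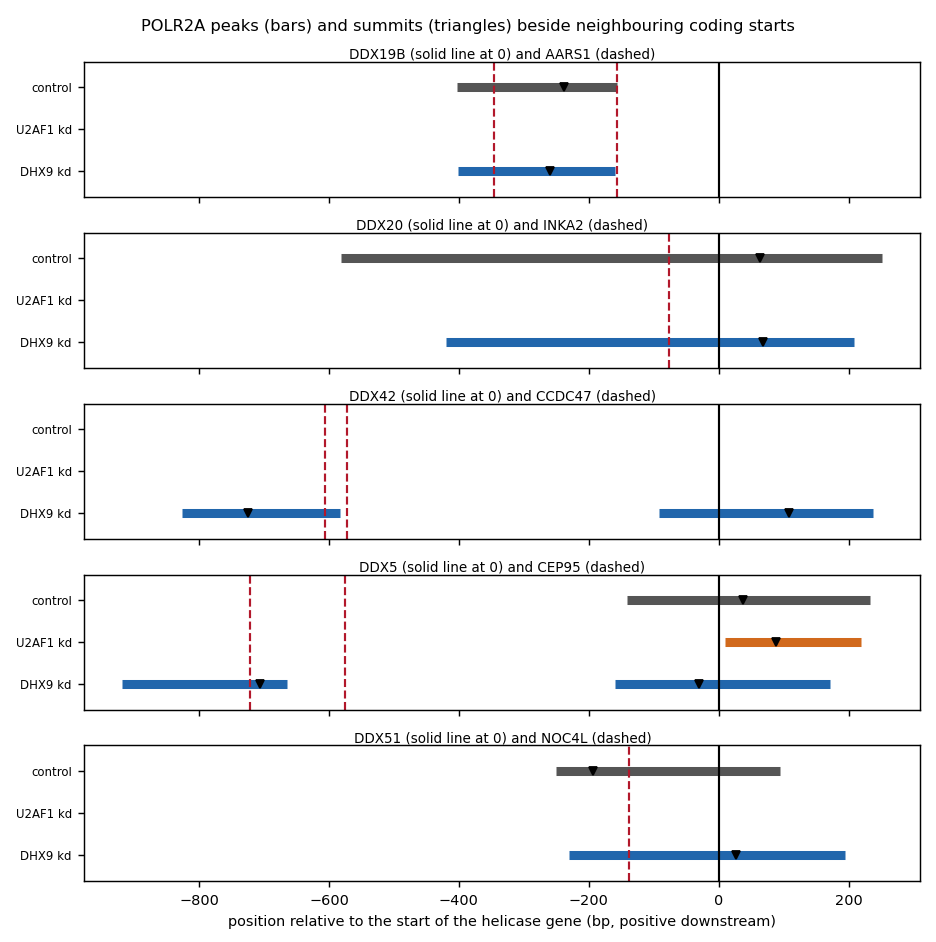
POLR2A peaks (bars) and summits (triangles) at 5 helicase genes that share a promoter region with another coding gene, against the position relative to the start of the helicase gene (bp, positive downstream). Rows are the control (grey), U2AF1 knockdown (orange) and DHX9 knockdown (blue) lists, the solid line is the helicase start and dashed lines are starts of the neighbour. At DDX51 the control summit lies at -194 bp and the DHX9 knockdown summit at 26 bp, and at DDX19B both summits lie beside AARS1.

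DDX21, DDX46 and DDX59 were the genes with peaks in both knockdown lists and none in the control list. DDX21, which acts in the nucleolus on ribosomal RNA and also on transcription, had peaks at chr10:68956051-68956320 (U2AF1 knockdown, fold enrichment 5.70, rank 470) and chr10:68956070-68956450 (DHX9 knockdown, 5.72, rank 1727). The summits were 5 bp apart, in a coding exon, 51 and 56 bp downstream of the nearest start. DDX59 had weaker peaks, of fold enrichment 4.58 (rank 930) after U2AF1 knockdown and 5.17 (rank 2383) after DHX9 knockdown. Its summits lay on either side of an annotated start, at -79 and 16 bp.

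The upstream bases of the DDX21 peak of the U2AF1 knockdown list, chr10:68956051-68956134, are printed on the plus strand with an ETS factor motif (CCGGAAGT) in capitals.
DDX21: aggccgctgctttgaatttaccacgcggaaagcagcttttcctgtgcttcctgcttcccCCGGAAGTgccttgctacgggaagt
These ETS letters were in 6.33% of all coding promoters and in 11 of 48 helicase promoters (22.9%). Of the 11, DDX21, DDX5 and DHX30 had a peak in some list and DDX27, DDX39B, DDX47, DDX50, DDX56, DHX34, DHX37 and DHX8 had none. A match of letters is a description and not a bound site.

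The DDX46 peaks were the highest-ranked helicase peak of the U2AF1 knockdown list and a weak one of the DHX9 knockdown list, and neither lay at the DDX46 start. DDX46 remodels the U2 particle at the branch point. The peaks, chr5:134845948-134846291 (fold enrichment 6.83, rank 236) and chr5:134845871-134846120 (3.99, rank 3766), were inside the annotated span of the gene but beyond the end of its canonical transcript, 20312 and 20226 bp from its nearest start. C5orf24 starts 29 and 57 bp from these summits on the same strand. Without peaks whose nearest coding start belongs to another gene, DDX46 had no peak.

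The exon-free part of the DDX46 peak of the DHX9 knockdown list, chr5:134845871-134845967, is printed on the plus strand with the motif TCTCGCGA in capitals.
DDX46: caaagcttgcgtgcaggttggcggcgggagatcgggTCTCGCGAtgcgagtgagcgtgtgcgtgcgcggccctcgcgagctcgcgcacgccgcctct
It holds 17 CpG dinucleotides in 97 bases, the make-up of a CpG-rich promoter. These letters occurred in 1.79% of coding promoters.

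The 9 genes with a peak in the DHX9 knockdown list only had a median rank of 3094, from 577 to 4224, and a median −log10 q of 5.14. The 10 helicase genes also found in another list had a median rank of 1885.5 in the DHX9 knockdown list, from 115 to 3766, and a median −log10 q of 7.21. The genes found in the longest list alone were thus mostly in its weaker part, and DHX30 was the strongest of them.

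DHX30, which assembles mitochondrial ribosomes, had 2 peaks in the DHX9 knockdown list. The stronger, chr3:47802821-47803327, had a fold enrichment of 7.51 and rank 577, with its summit 4 bp from an annotated start and at -184 bp from the canonical start. The other, chr3:47824895-47825229, had 6.47 and rank 1084 and lay at an alternative start inside intron 4 of the canonical transcript, 21940 bp downstream of its start. At equal list length DHX30 alone of these 9 genes remained.

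The next in rank were DDX19A, DDX23, DDX42 and DDX11. DDX19A, a close relative of DDX19B on chromosome 16, had a peak 23 bp downstream of its start with a fold enrichment of 5.60 and rank 1820. DDX42, which works with the U2 particle, had a peak at 88 bp (fold enrichment 4.41, rank 3376) and another of rank 2568 that lay 119 bp from a start of CCDC47, the neighbour on the opposite strand. DDX11, a DNA helicase of sister chromatid cohesion, had a peak 2 bp from its start with a fold enrichment of 4.59 and rank 3094.

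The DDX11 peak at chr12:31073754-31074005 has 2 near copies in the genome. The best one, at chr12:9448068-9448319, at the start of the pseudogene DDX12P, was 96.4% identical over all 252 bases. Reads from either place could be hard to tell apart, so this peak is uncertain.

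DDX23, the helicase that releases the U1 particle as the spliceosome is activated, had 1 peak, in the DHX9 knockdown list, and it was not at its start. The peak, with a fold enrichment of 5.34 at rank 2135, lay in intron 3 of the canonical transcript, 1376 bp downstream of the nearest annotated start and 9533 bp from the canonical one. A search of the genome found 4325 alignments of at least 90% identity over at least 50% of the peak, the best 99.3% identical over 147 bp, so where these reads came from is uncertain. Of the 35 helicase peaks, those of DDX23 and DDX11 were the only ones with such copies. The control and U2AF1 knockdown lists had no peak at DDX23.

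DDX1, DDX17, DDX55 and DDX39A had the weakest peaks of these 9 genes. DDX1, part of the ligase complex that joins spliced transfer RNAs, had rank 3585 and a summit at -3 bp. DDX17, the close relative of DDX5, had rank 3642 and a summit 171 bp downstream in a coding exon, the farthest downstream of the start-site peaks. DDX55, a large ribosomal subunit factor, ranked 3873 with its summit at 22 bp.

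DDX39A, an export helicase related to DDX39B, had the least significant helicase peak, at chr19:14418993-14419385, with a −log10 q of 1.40, a fold enrichment of 3.14 and rank 4224. Its first intron inside the peak, chr19:14419094-14419269, is printed on the minus strand, since it is rich in G on the strand of the RNA. Capitals mark GC boxes and the motif TCTCGCGA on either strand.
DDX39A: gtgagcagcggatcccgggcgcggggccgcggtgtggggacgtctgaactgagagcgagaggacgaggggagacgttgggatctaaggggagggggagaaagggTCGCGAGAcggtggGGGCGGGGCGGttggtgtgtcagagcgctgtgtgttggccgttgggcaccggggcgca
Of its 176 bases 91 are G and 32 are C. G in excess of C downstream of a start is known as a feature of DNA that forms R-loops, and R-loops were not measured in these lists.

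Among the role lists of more than 2 genes, helicases of messenger RNA export, translation and decay had the highest share with a peak in the DHX9 knockdown list, where 22.2% of all coding genes had one: 6 of 8 genes (DDX1, DDX19A, DDX19B, DDX39A, DDX3X and DDX6), with 3 in the control list and 1 after U2AF1 knockdown. Spliceosomal helicases had a peak in 5 of 13 cases in the DHX9 knockdown list (DDX17, DDX23, DDX42, DDX46 and DDX5), 2 in the U2AF1 knockdown list (DDX46 and DDX5) and 1 in the control list (DDX5). Of all coding genes, 13.2% had a peak in the control list and 7.37% in the U2AF1 knockdown list. At equal list length DDX3X alone of the genes in these role lists kept a peak in the DHX9 knockdown list. The counts also include DDX19B and DDX46, whose peaks lay nearest another coding gene's start, DDX23, whose peak has many copies, and the weak DDX39A peak. The DEAH box helicases that drive the catalytic steps of splicing and take the spliceosome apart, DHX16, DHX38, DHX8 and DHX15, had no peak in any list. Nor did DDX39B and DDX41.

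Of the 16 ribosome assembly helicases, 3 had a peak in some list: DDX51 in the control list, DDX21 after U2AF1 knockdown, and DDX21, DDX51 and DDX55 in the DHX9 knockdown list. This share, 18.75%, was near the 22.2% of all coding genes in the DHX9 knockdown list. DDX10, DDX18, DDX24, DDX27, DDX31, DDX47, DDX49, DDX50, DDX52, DDX54, DDX56, DHX33 and DHX37 had none. Of the mitochondrial pair, DHX30 had a peak and DDX28 none.

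The innate sensors of foreign RNA, DHX58, DDX60 and DDX60L, had 0 peaks in 3 lists. The germline helicases DDX4, DDX25, DDX43 and DDX53, of which DDX4 is the germ cell marker VASA, also had 0. Of all coding genes, 73.6% had no peak in any list, so zeros in role lists this small do not separate these genes from the background. DHX32, DHX34 and DHX57 had no peak. Neither did DHX29 and DHX36 of the export, translation and decay list, nor DHX35 and DHX40 of the spliceosomal list. Each role list is small, so shares differ between roles by few genes.

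By name, 17 of 37 DDX genes (45.9%) and 2 of 16 DHX genes (12.5%) had a peak in the DHX9 knockdown list, where all coding genes stood at 22.2%. Control peaks were found at 6 of 37 (16.2%) and 1 of 16 (6.25%), with all coding genes at 13.2%. After U2AF1 knockdown they were 5 of 37 (13.5%) and 1 of 16 (6.25%), with all coding genes at 7.37%. The difference between the names was not tested. At equal list length the DHX9 knockdown list kept peaks at DDX20, DDX3X, DDX51 and DHX30 only, so its counts by name depended on list length. DHX9 and DHX30 were the DHX genes with a peak.

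The lists hold called peaks only, so weaker signal at a start could not be seen. Among called peaks, the genes without a peak had none just outside the window. The summit nearest to any of their starts was 4630 bp away, at DHX37 in the DHX9 knockdown list, followed by 7065 bp at DDX56 and 8487 bp at DHX58. Only these 3 of 34 had a summit within 10000 bp, and the median distance was 126412 bp. Among genes with a peak, the summit farthest from a start but inside the window was that of DDX19B, at -259 bp. A window of 500 or of 2000 bp therefore gave the helicase genes the same shares of genes with a peak.

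Where a peak lay at a start, its summit was mostly just downstream. Of the 35 helicase peaks, 32 were at a start and 3, those of DDX23 and DDX46, in the gene body. Taking the strongest start-site peak of each gene, the median summit position was 33 bp downstream in the control list (7 genes, from -238 to 39 bp) and 51 bp in the U2AF1 knockdown list (5 genes, from -79 to 88 bp). It was 22 bp in the DHX9 knockdown list (17 genes, from -259 to 171 bp). For all coding genes the medians were 18, 28 and 14 bp. In the DHX9 knockdown list 13 of 17 helicase summits (76.5%) were downstream of the start, against 58.2% of all coding genes with a start-site peak, and 13 lay within 100 bp, against 63.5%. In the control list 4 of 7 (57.1%) were downstream, against 59.3%, and 4 lay within 100 bp (57.1%), against 65.2%. In the U2AF1 knockdown list 4 of 5 (80%) were downstream, against 64.7%, and 5 lay within 100 bp, against 63.1%.

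**Figure D4:**
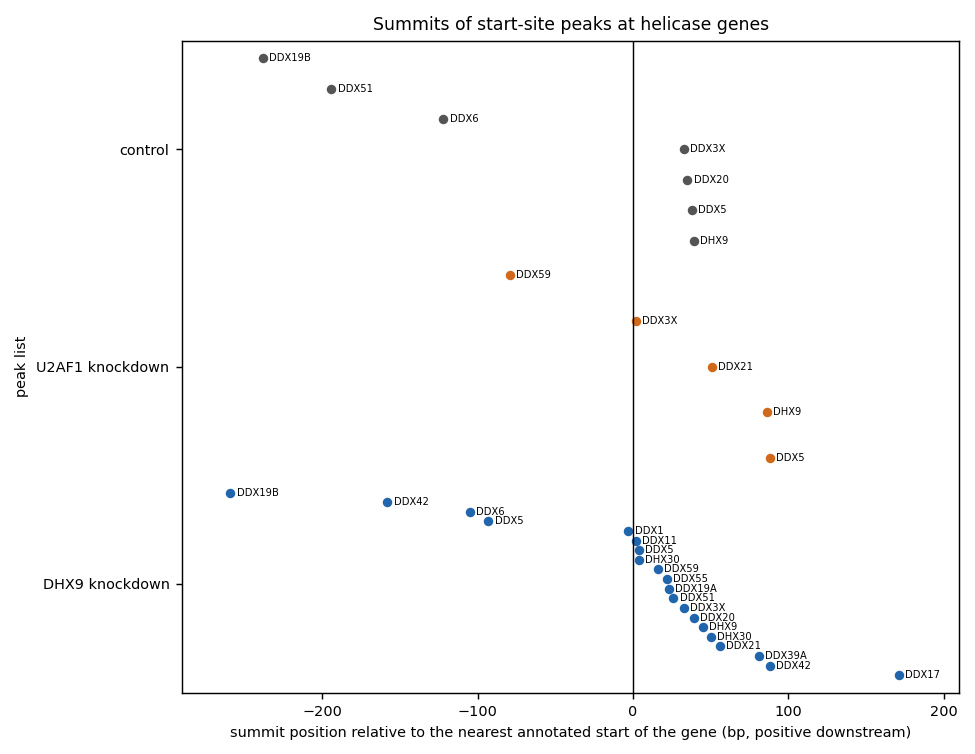
Position of each start-site summit at a helicase gene (horizontal axis, bp from the nearest annotated start of the gene, positive downstream), by peak list (vertical axis). Each point is 1 peak, and the vertical spread within a list only separates the labels. In the control list DDX3X, DDX20, DDX5 and DHX9 lie between 33 and 39 bp, and the peaks farthest upstream in any list are those of DDX19B at -238 and -259 bp.

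In the control list the 4 downstream summits, at DDX3X, DDX20, DDX5 and DHX9, lay between 33 and 39 bp from their nearest annotated starts. Measured from the canonical starts they were more spread, at 46, 64, 38 and 39 bp in the same order. The other 3, at DDX19B, DDX51 and DDX6, lay upstream, and each of these had another gene's start nearer. In all, 7 of 35 helicase peaks had another coding gene's start nearest: both of DDX19B, both of DDX46, the control peak of DDX51, and 1 each of DDX5 and DDX42 in the DHX9 knockdown list. That second DDX5 peak ranked 3915 and lay 15 bp from a start of CEP95. Counting peaks for the gene of the nearest coding start only, 5 helicase genes had a control peak (9.43%, all coding genes 10.7%). After U2AF1 knockdown there were 5 (9.43%, against 6.03%) and after DHX9 knockdown 17 (32.1%, against 18.4%).

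The median rank of the strongest helicase peak, as a share of the list's length, was 41.0% (control), 24.2% (U2AF1 knockdown) and 53.6% (DHX9 knockdown). For all coding genes with a peak it was 45.4%, 42.4% and 45.7%. The 95% intervals of the helicase medians were wide, 7.44% to 63.4%, 13.6% to 66.4% and 37.4% to 80.7% in the same order, and each held the value of all coding genes. In the control list DDX5 alone was in the top 10% of peaks, and in the DHX9 knockdown list DDX3X alone.

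The helicase genes as a family have CpG-rich starts. The ratio of observed to expected CpG dinucleotides within 500 bp of the canonical start was at least 0.6 for 48 of 53 helicase genes (90.6%), against 66.4% of all coding genes. Among genes with such starts, 18 of 48 helicase genes (37.5%) had a peak in some list, and 37.1% of all coding genes did. By list the helicase share among CpG-rich starts was 12.5% in the control list, where all coding genes stood at 18.7%. It was 12.5% after U2AF1 knockdown (all coding genes 10.4%) and 37.5% after DHX9 knockdown (31.3%). Set against genes with like starts, the distance from background in the DHX9 knockdown list was smaller than against all coding genes. DDX19B was the 1 gene with a peak and a CpG-poor canonical start. Its peaks were those beside AARS1, with summits at -9761 bp (control) and -9782 bp (DHX9 knockdown) from that canonical start.

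All 19 helicase genes with a peak had more G than C on the coding strand in the first 500 bp after the canonical start. Their median skew, the excess of G over C divided by their sum, was 0.136. At DDX46, DDX23 and DDX19B the peaks lay 9533 bp or more from the canonical start, so the skew does not describe the bases under those peaks. Of the 34 without a peak, 29 (85.3%) had an excess of G, with a median skew of 0.0657, and the 5 others were DDX27, DDX39B, DDX4, DDX52 and DHX38. Of all coding genes with a peak, 71.2% had an excess of G (median skew 0.0667), and of those without a peak 65.0% (0.0476). The highest skew of a helicase gene, 0.406, belonged to DHX34, which had no peak, followed by DDX6 (0.363) and DDX39A (0.325).

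**Figure D5:**
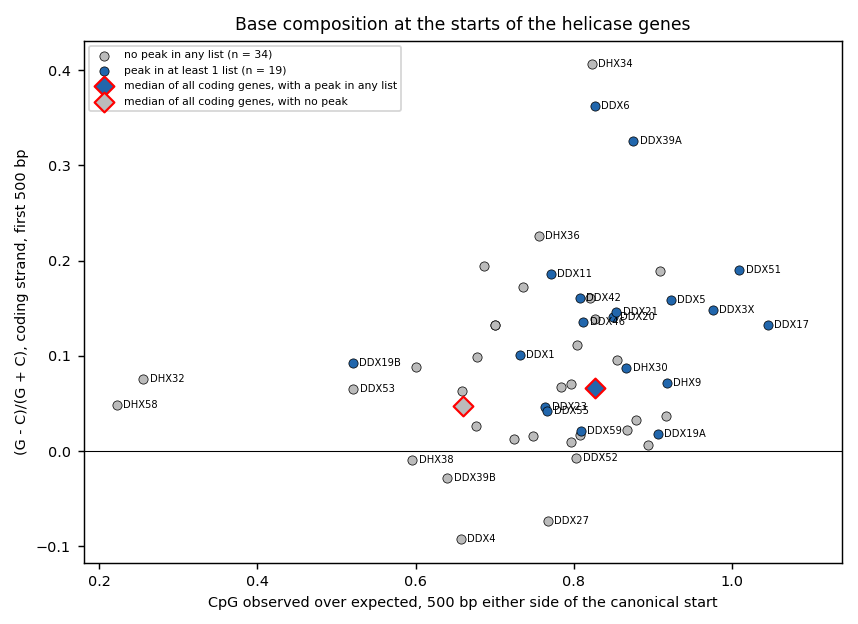
Base composition at the starts of the 53 helicase genes: the ratio of observed to expected CpG within 500 bp of the canonical start (horizontal axis) and the G over C skew of the coding strand in the first 500 bp (vertical axis). Blue points are genes with a peak in at least 1 list, grey points genes with none, and diamonds the medians of all coding genes with and without a peak. All 19 blue points lie above 0, and the 5 points below 0 are grey.

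Measured from the canonical start of each gene, another coding gene started on the opposite strand within 1000 bp at 4 of 19 helicase genes with a peak (21.1%). All coding genes with a peak stood at 22.2%, so this share was near that background. Without a peak it was 9 of 34 helicase genes (26.5%), against 10.9% of all coding genes without one. The share of all coding genes was 13.9%. Median gene lengths were 30.9 kb with a peak and 33.5 kb without. The TATA box letters (TATAAA) were in 0 of the 19 promoters of helicase genes with a peak, in 2 of all 48 helicase promoters and in 9.64% of all coding promoters. The CCAAT box was in 6 of those 19, in 22 of the 48 (45.8%) and in 36.6% of all. With 19 promoters these counts are too small to separate genes with a peak from the background.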

How the data were processed

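POLR2A ChIP-seq was deposited as 1 narrowPeak list per condition. Per the submitters' processing notes, Bowtie2 2.4.5, MACS2 2.2.7.1, deepTools 3.5.1 and build hg38 were used; their settings and roles are not given in the sources used here. The deposited fold enrichment is a ratio, and the deposited significance is −log10 of the p-value and q-value, both made by the authors' peak caller. Read counts were not used here, so depth is unknown.

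Summits were assigned to GENCODE 44 genes with Python 3.11.15 (pandas 2.3.3, numpy 2.4.6), as tested on simulated peaks. Ranks are by fold enrichment within a list. Wilson intervals are at 95%. Sequences came from GRCh38 and from RefSeq promoters of GRCh38.p14, and copies from BLAST 2.17.0. RefSeq promoters matched 48 of 53 helicase genes. Motifs were searched as exact letters on both strands, overlaps included. A related gene and a peak sequence are not reported here.

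The members and lists were chosen with earlier results of these data known. Genes named were DHX9, DDX23, the 5 highest ranks in each list, genes of 1 list or of both knockdown lists only, gene-body peaks, examples by role, and all genes without a peak; for the 9 genes of the DHX9 knockdown list only, where the rule took 5, the rest were named after their values were seen. 9 other settings were tried.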

Additional observations from a re-analysis of the deposited data

How the results depend on the processing

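Of 130 values recomputed under 9 other settings, 118 stayed within the 95% interval of the reported value or, for counts, within 1.5 times it. The other 12 moved. At equal list length, 1730 peaks each, the DHX9 knockdown share of helicase genes was 7.55%. At that length the counts of helicase genes were 1 in all 3 lists, 1 in the control list only, 3 in the U2AF1 knockdown list only, 1 in the DHX9 knockdown list only, 2 in the control and DHX9 knockdown lists only, 2 in the control and U2AF1 knockdown lists only and 0 in both knockdown lists only. With −log10 q of at least 5 there was 1 in the U2AF1 knockdown list only and 1 in both knockdown lists only. Counting the nearest coding start only, 2 were in the control and DHX9 knockdown lists only. With canonical starts only, the median summit position in the DHX9 knockdown list was 45.5 bp. The pattern over the lists thus depends on list length, and read depth is unknown. No paired analysis was possible because there is 1 list per condition; for the same reason no replicate could be left out.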

Other observations

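Some helicases whose names fall outside the DDX and DHX series also had peaks. EIF4A3, the DEAD box core of the exon junction complex, ranked 150 (control), 57 (U2AF1 knockdown) and 193 (DHX9 knockdown), and so stood in the top 5.44%, 3.29% and 4.34%. EIF4A2, a translation initiation helicase, ranked 110 in the control list and 390 in the DHX9 knockdown list and had no peak in the U2AF1 knockdown list. UPF1, the helicase of nonsense-mediated decay, had a peak within 2 bp of its start in all lists.

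Of 46 genes with a helicase name that are not protein-coding, 35 are pseudogenes, of which 0 had a peak. The 4 with a peak were the non-coding transcripts DHX9-AS1, DDX59-AS1, DDX11-AS1 and DDX19A-DT, which share their peaks with the helicase gene on the other strand.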
